A study of Homo sapiens with 9 samples.

Results

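The mitochondrial respiratory chain genes of an orthotopic anaplastic thyroid cancer model were followed across 9 tumors. Members were chosen by symbol. They were the genes whose symbol begins with Nduf (other than the Ndufaf assembly factors), Uqcr, Atp5, Cox4, Cox5, Cox6, Cox7 or Cox8, together with Sdha, Sdhb, Sdhc, Sdhd and Cycs. The rule found 80 of the 17369 genes in the expression table, of which 34 belong to complex I, 4 to complex II, 8 to complex III, 19 to complex IV and 14 to complex V, and the last is cytochrome c. Some subunits that the rule would match, among them Cox7b, Ndufa1 and Ndufb11, were not in the expression table, so these sets are not complete. Ndufa4 and its relative Ndufa4l2 carry complex I names and were counted with complex IV, where the NDUFA4 protein is found. Of the 80 genes, 72 are common forms used in most tissues and 8 are tissue forms with restricted expression.

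All tumors were grown from TBP3743, a murine anaplastic thyroid cancer line derived from B6129SF1 mice with thyroid-specific activation of Braf and deletion of Trp53. Original cells were injected into B6129SF1 mice (original/B6129SF1), and adapted cells, taken after passage round 3 in C57BL/6 mice, were injected into B6129SF1 mice (adapted/B6129SF1) or C57BL/6 mice (adapted/C57BL/6). The hosts were 6-week-old female mice given 100000 cells in the left thyroid, the tumors were taken on day 14, and each group had 3 tumors. All groups come from 1 cell line, and RNA was taken from whole tumor tissue, so host cells contribute to every value, and fewer cells of a type cannot be told apart from less RNA per cell.

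The respiratory chain moves electrons from NADH and succinate to oxygen and uses the energy to make ATP. Complex I and complex II accept electrons from NADH and succinate, complex III passes them to cytochrome c, complex IV hands them to oxygen, and complex V, the ATP synthase, uses the resulting proton gradient. Most subunits are encoded in the nucleus. Some complex IV subunits exist as pairs, with a common form and a form used in heart, skeletal muscle or brown fat. The 13 subunits encoded by mitochondrial DNA were sought by symbol, but 0 were in the expression table, and they were not analysed here.

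The 2 tumors that stood apart were found with markers of skeletal muscle, the tissue that surrounds the thyroid. The 28 muscle markers, among them Acta1, Ckm and Myh1, added up to 7.83% of the summed FPKM in adapted/B6129SF1 replicate 3. In adapted/C57BL/6 replicate 1 their share was 1.55%, and in the other 7 tumors it lay between 0.0163% and 0.190%. All 28 markers were highest in adapted/B6129SF1 replicate 3, and 27 were second highest in adapted/C57BL/6 replicate 1. These 2 tumors are called muscle-rich here, and the counts and medians of each comparison are given with and without them. Of the thyroid markers, Nkx2-1 lay between 23.5 and 44.5 FPKM, whereas Pax8 did not exceed 1.61 FPKM. Besides Nkx2-1, 1 more of the 10 thyroid markers was expressed enough to be tested, and it varied more. On the log2(FPKM + 1) scale it differed by -2.48 in adapted/B6129SF1 against original/B6129SF1 and by 2.60 in adapted/C57BL/6 against adapted/B6129SF1. Of the 2 tested, 0 passed an adjusted p of 0.05 by limma.

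Common respiratory chain genes were abundant in every tumor. FPKM is a read density scaled to transcript length and library size, so the levels of different genes can be set beside each other. The mean over the 9 tumors ranged from 14.6 FPKM for Cycs to 618 FPKM for Atp5b, the catalytic beta subunit of the ATP synthase. Of the 72 genes, 57 lay in the top 10% of all 10263 genes tested, which began at 73.0 FPKM. Together the 80 members took between 2.33% and 3.11% of all FPKM, and the highest share was that of adapted/B6129SF1 replicate 3.

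Levels differed more between subunits of a complex than between tumors. In complex I, means ran from 16.2 FPKM for Ndufa11 to 210 FPKM for Ndufa7, with a median of 88.6 FPKM. The 4 genes of complex II, the succinate dehydrogenase of the citric acid cycle, were the most even and lay between 90.1 FPKM for Sdha and 130 FPKM for Sdhb. Complex III ran from 71.5 FPKM for Uqcrfs1, the iron-sulfur protein, to 381 FPKM for Uqcrh, the hinge protein. The common genes of complex IV ran from 83.8 FPKM for Cox7a2 to 516 FPKM for Cox4i1, and those of complex V from 92.6 FPKM for Atp5g1, which encodes the c subunit of the proton ring, to 618 FPKM for Atp5b. Cycs has many processed copies in the mouse genome, so its reads may have been split among copies in the deposited values. Atp5g1, Atp5g2 and Atp5g3 are separate genes for the same mature protein, and whether reads were shared among them is not known.

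**Figure D1:**
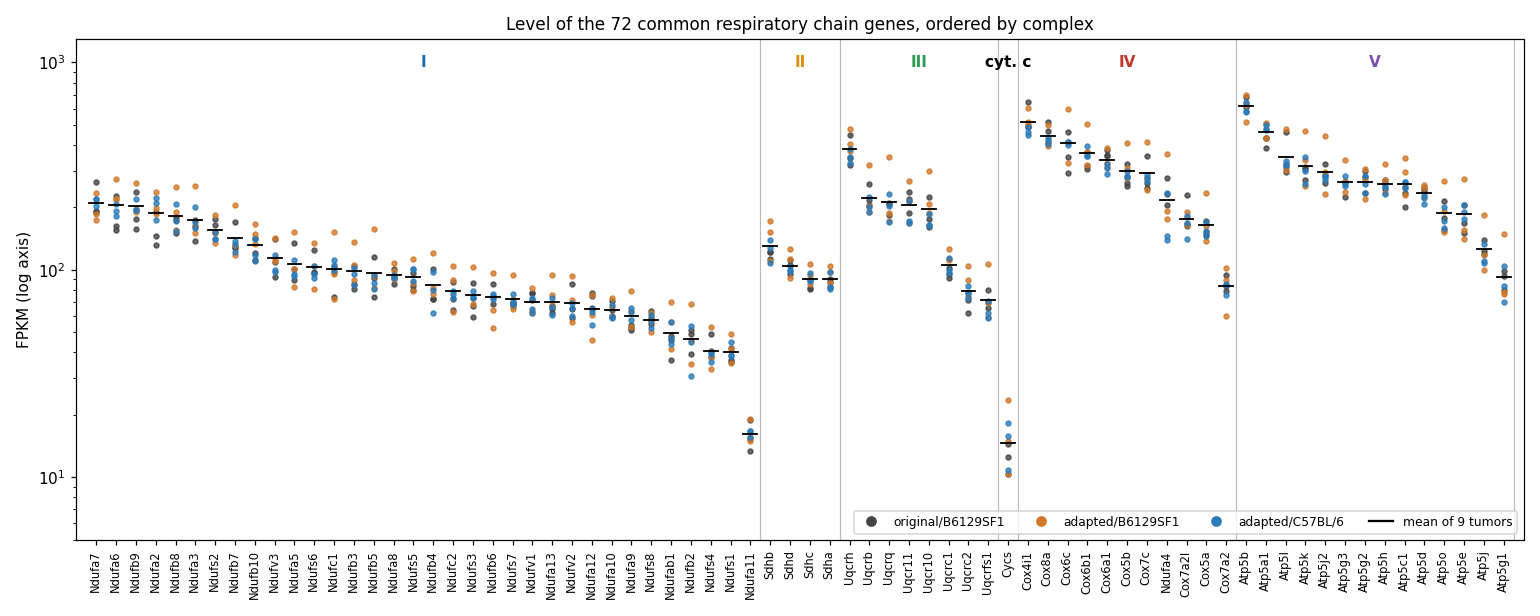
FPKM of each of the 72 common respiratory chain genes (log axis), with genes on the horizontal axis grouped by complex and ordered by mean. Each point is 1 tumor, coloured by group, and the bar is the mean of 9 tumors. Cycs and Ndufa11 are the only means under 20 FPKM.

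Between tumors the common genes varied little. In the 7 tumors that were not muscle-rich, the coefficient of variation, which is the SD divided by the mean, had a median of 11.5% over the 72 genes. It was 13.8% for the 4949 tested genes whose means lay in the same range of FPKM. Ndufs7, a complex I core subunit, was the steadiest at 3.63%, with values between 64.6 and 72.4 FPKM in these 7 tumors, and Ndufa4 varied most at 24.8%. With all 9 tumors the median rose to 16.1% for the members and 13.9% for the genes of similar level.

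Adapted/B6129SF1 replicate 3 had the highest level of most members. It was the highest of the 9 tumors for 67 of the 77 members tested (87.0%), against 15.2% of all genes tested, and above both other tumors of its group for 72 (93.5%, against 33% of all genes). Relative to each gene's own mean on the log2(FPKM + 1) scale, the median of the 72 common genes was 0.41 in this tumor. The next highest were 0.16 in original/B6129SF1 replicate 2 and 0.06 in adapted/C57BL/6 replicate 1. The lowest was -0.19 in adapted/B6129SF1 replicate 1, a tumor of the same group, which was the lowest of the 9 for 31 members (40.3%, against 14.1% of all genes) and below both group mates for 71 (92.2%, against 33.7%). The median of all genes tested lay between -0.03 and 0.02 in every tumor.

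The position of adapted/B6129SF1 replicate 3 was first under every scaling tried, with a median of 0.28 after rescaling to an equal total (TPM), 0.42 after median-of-ratios scaling and 0.27 after quantile normalization. The median of all genes in this tumor moved to -0.16 under TPM and to -0.11 under quantile normalization. The second place went to original/B6129SF1 replicate 2 under all of these except TPM, where it went to adapted/C57BL/6 replicate 1 with 0.16. Muscle share and member level were not ordered alike below the top. Adapted/B6129SF1 replicate 1 had the third highest muscle share, 0.190%, and the lowest member level, while original/B6129SF1 replicate 2 had a muscle share of 0.0202% and the second highest member level. The part of muscle tissue in the level of the common genes was not tested.

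**Figure D2:**
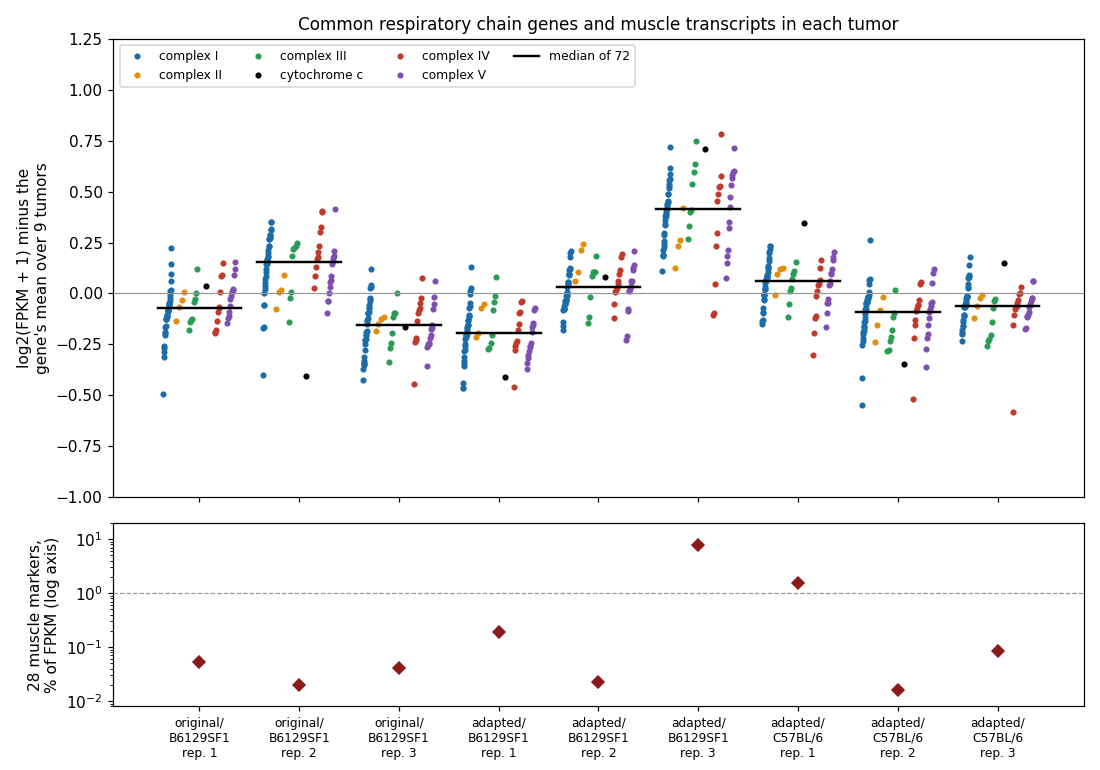
Upper panel, each common gene's log2(FPKM + 1) minus its own mean over the 9 tumors, by tumor and coloured by complex, with a bar at the median of 72 genes. Lower panel, the share of all FPKM taken by 28 skeletal muscle markers (log axis), with a dashed line at 1%. The median was 0.41 in adapted/B6129SF1 replicate 3 and -0.19 in adapted/B6129SF1 replicate 1.

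In the deposited FPKM the level in adapted/B6129SF1 replicate 3 was highest in all complexes. Against the mean of the other 2 tumors of its group, 70 of the 72 common genes were higher there, with a median fold of 1.38, and 24 exceeded 1.5-fold (background 9.40% of all genes tested). The median fold was 1.38 in complex I, 1.21 in complex II, 1.46 in complex III, 1.39 for the common genes of complex IV and 1.43 in complex V. Complex II thus had the smallest median, with folds from 1.03 for Sdha to 1.31 for Sdhb. It was also the complex whose order turned with the scaling. Relative to the genes' own means its median was 0.11 in this tumor under TPM, below adapted/C57BL/6 replicate 1 (0.21) and adapted/B6129SF1 replicate 2 (0.20), and 0.13 under quantile normalization, below adapted/B6129SF1 replicate 2 (0.25). The medians of the other complexes and of Cycs were highest in this tumor under every scaling tried. Ndufa4 (1.97-fold), Uqcrq of complex III (1.94-fold), Atp5g1 (1.93-fold), Atp5e (1.87-fold) and Cycs (1.87-fold) had the largest folds. The 2 exceptions were Cox6a1 at 0.883-fold and Cox8a at 0.914-fold, each the common partner of a muscle form. The third common partner, Cox7a2, was higher at 1.37-fold. For Cox6a1 the adapted/B6129SF1 tumors had 327, 386 and 315 FPKM in the order of replicates, and for Cox8a 396, 498 and 408 FPKM.

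Adapted/C57BL/6 replicate 1 showed a smaller difference. It was above both other adapted/C57BL/6 tumors for 54 of the 77 members tested (70.1%, against 32.3% of all genes). The median fold of the 72 common genes over the mean of those tumors was 1.11, with a range from 0.804 for Ndufa2 to 1.65 for Ndufa4. Original/B6129SF1 replicate 2, which had almost no muscle transcripts, was above both other tumors of its group for 59 members (76.6%, against 37.6% of all genes).

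Muscle forms of complex IV subunits marked the muscle-rich tumors. Cox6a2, the heart and skeletal muscle form of subunit 6a, was listed at 2.89, 0.571 and 1.96 FPKM in original/B6129SF1, at 18.6, 0.345 and 391 FPKM in adapted/B6129SF1 and at 123, 0.580 and 3.16 FPKM in adapted/C57BL/6, each in the order of replicates 1 to 3. The 2 muscle-rich tumors were the highest, adapted/B6129SF1 replicate 1 came next, and the groups overlapped. Cox6a1, the common form, stayed between 289 and 386 FPKM in all 9 tumors, so that the muscle form made up 55.4% of the pair in adapted/B6129SF1 replicate 3 and 28.4% in adapted/C57BL/6 replicate 1, but no more than 5.39% in the others. On the log2(FPKM + 1) scale the difference was 3.05 ± 2.07 (SE) for adapted/B6129SF1 against original/B6129SF1, with an adjusted p of 0.378 by limma, and without the muscle-rich tumors it was 0.97. For adapted/C57BL/6 against original/B6129SF1 it was 1.83 ± 2.07 with an adjusted p of 0.639 by limma, and -0.04 without them.

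Cox7a1, the muscle and brown fat form of subunit 7a, was listed at 3.75, 3.50 and 5.25 FPKM in original/B6129SF1, at 10.1, 5.56 and 37.5 FPKM in adapted/B6129SF1 and at 47.9, 3.76 and 1.82 FPKM in adapted/C57BL/6. All adapted/B6129SF1 tumors were above all original/B6129SF1 tumors, and adapted/C57BL/6 held both the highest and the lowest of the 9 values. Its common partner Cox7a2 lay between 60.2 and 102 FPKM. The log2 difference from original/B6129SF1 was 1.46 ± 1.01 in adapted/B6129SF1 (adjusted p of 0.383 by limma) and 0.77 ± 1.01 in adapted/C57BL/6 (adjusted p of 0.690 by limma). These were 0.74 and -0.48 without the muscle-rich tumors.

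Cox8b, the muscle and brown fat form of subunit 8, was listed at 1.28, 0 and 1.02 FPKM in original/B6129SF1, at 8.80, 5.85 and 88.5 FPKM in adapted/B6129SF1 and at 83.1, 0.274 and 3.01 FPKM in adapted/C57BL/6. The 3 adapted/B6129SF1 tumors lay above the 3 original/B6129SF1 tumors, including replicates 1 and 2, which were not muscle-rich. Their muscle shares were 0.190% and 0.0221%, against 0.0202% to 0.0539% in original/B6129SF1. Their summed brown fat markers were 16.9 and 7.29 FPKM, against 6.36 to 15.5 FPKM. The part of muscle or fat tissue in the Cox8b level was not tested. The log2 difference was 3.45 ± 1.47 (95% interval 0.10 to 6.80), with an adjusted p of 0.177 by limma, and 2.30 with an adjusted p of 0.0567 without the muscle-rich tumors. For adapted/C57BL/6 against original/B6129SF1 it was 2.18 ± 1.47 with an adjusted p of 0.408 by limma, and 0.44 without them. Adapted/C57BL/6 against adapted/B6129SF1 gave -1.22 for Cox6a2, -0.70 for Cox7a1 and -1.27 for Cox8b, with adjusted p-values of 0.945, 0.932 and 0.922 by limma, and -1.0, -1.22 and -1.86 without the muscle-rich tumors.

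As a share of its pair, Cox8b was higher in every adapted/B6129SF1 tumor than in every original/B6129SF1 tumor, at 2.17, 1.16 and 17.8% against 0.273, 0 and 0.244%. The share averaged 0.173% ± 0.150 (SD, n = 3) in original/B6129SF1, 7.05% ± 9.33 in adapted/B6129SF1 and 5.91% ± 9.60 in adapted/C57BL/6. An exact two-sided permutation test over tumors gave p = 0.1 for adapted/B6129SF1 against original/B6129SF1, which is the smallest p that 3 against 3 tumors allow, and an adjusted p of 0.72 over the 9 tests of 3 pairs, so a threshold of 0.05 was out of reach for any of them. The other 8 exact p-values lay between 0.2 and 0.8.

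**Figure D3:**
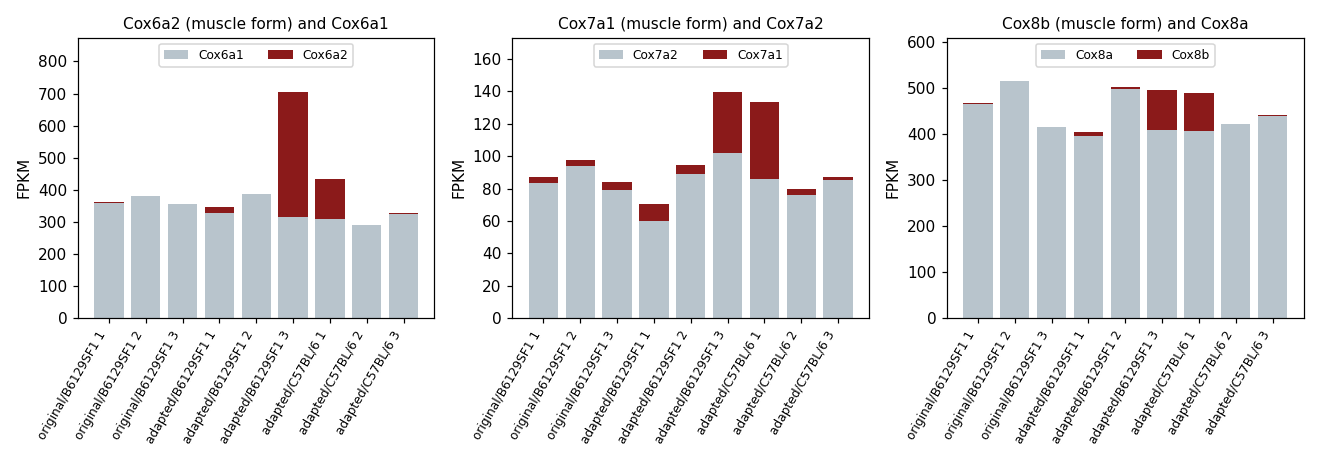
FPKM of 3 pairs of complex IV subunit forms in each of the 9 tumors, as stacked bars from 0, with the common form in grey and the muscle form in red. The muscle form is the larger part of a bar only for Cox6a2 in adapted/B6129SF1 replicate 3.

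The muscle forms differed in their ratio between the 2 muscle-rich tumors. The summed markers were 5.96 times higher in adapted/B6129SF1 replicate 3 than in adapted/C57BL/6 replicate 1, and the ratio of single markers ran from 1.31 for Ckmt2, the mitochondrial creatine kinase of muscle, to 16.3 for Mylpf, a fast fibre myosin light chain. Cox6a2, with a ratio of 3.19, lay inside this range, and Cox8b at 1.06 and Cox7a1 at 0.784 lay below it. Fabp3, a fatty acid carrier of heart and oxidative muscle that also stood in the list of brown fat genes, had a ratio of 1.08, with 143 and 132 FPKM in the 2 tumors. Of the 8 brown fat genes in the table, 5 were highest in adapted/B6129SF1 replicate 3, and their summed FPKM was 151 there, 137 in adapted/C57BL/6 replicate 1 and 6.36 to 16.9 in the other tumors, with Fabp3 as the main part of the 2 high sums. Ucp1 and Cidea, the defining genes of brown fat, were low. Ucp1 reached no more than 0.830 FPKM and Cidea no more than 3.34 FPKM, both in adapted/B6129SF1 replicate 2.

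The other tissue forms were at the edge of detection. Cox4i2, a lung form of subunit 4, was listed between 0.380 and 1.78 FPKM, and Ndufa4l2, a form induced by low oxygen, between 0.627 and 3.31 FPKM. Both passed the filter of 1 FPKM in at least 3 tumors and were highest in adapted/B6129SF1 replicate 3. Cox6b2, a testis form, lay just outside it, with 1 tumor at 1.06 FPKM and another at 0.992 FPKM, and was not tested. The testis forms Cox7b2 and Cox8c were listed at 0 in all 9 tumors.

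No member passed the test between any 2 groups. In adapted/B6129SF1 against original/B6129SF1, 0 of 77 members had an adjusted p under 0.05 by limma, where 8.28% of all genes tested did, and 5 had an unadjusted p under 0.05, against 26.5% of all genes. The members' median log2 difference was 0.13, with 59 positive and 18 negative, against a median of -0.03 for all genes tested. Without the muscle-rich tumors the count called was again 0 of 76 (background 4.73%), and the median fell to -0.04, with 31 positive and 45 negative. For 70 of the 72 common genes the signed difference was lower without these tumors, and the number of positive ones fell from 55 to 27. Among these 70, some positive differences became smaller and others turned negative, as for Ndufa5 (0.03 to -0.22). Those already negative became larger in size, as for Ndufa12 (-0.28 to -0.45).

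The estimates had limits that the intervals show. For adapted/B6129SF1 against original/B6129SF1, the 95% interval of the log2 difference lay within a doubling or halving, that is between -1 and 1, for all 72 common genes, and for 43 of them within 1.5-fold. Of all genes tested, 80.9% had an interval between -1 and 1. From the estimate to either bound, the interval spanned a median of 0.38. The members with the smallest adjusted p were in complex III and complex I. Uqcrc1, a core protein of complex III, was at 102, 95.3 and 91.6 FPKM in original/B6129SF1 and at 111, 113 and 126 FPKM in adapted/B6129SF1. The groups did not overlap, which held for 5 members in this direction (6.49%, against 13.6% of all genes) and for 0 in the other (against 15.9%). Its log2 difference was 0.28 ± 0.10 with an adjusted p of 0.115 by limma, and 0.22 without the muscle-rich tumors.

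Ndufa2, an accessory subunit of complex I, was at 131, 191 and 146 FPKM in original/B6129SF1, at 185, 198 and 239 FPKM in adapted/B6129SF1 and at 174, 222 and 210 FPKM in adapted/C57BL/6. Both adapted groups averaged above the original group and overlapped it through original/B6129SF1 replicate 2. Its log2 difference was 0.42 ± 0.17 in adapted/B6129SF1 and 0.38 ± 0.17 in adapted/C57BL/6, with adjusted p-values of 0.154 and 0.202 by limma. Ndufa6, a further accessory subunit, had 162, 227 and 156 FPKM in original/B6129SF1 and 220, 219 and 273 FPKM in adapted/B6129SF1, with a difference of 0.40 ± 0.16 and an adjusted p of 0.155 by limma. The second core protein of complex III, Uqcrc2, differed by 0.33 ± 0.14 with an adjusted p of 0.169 by limma. Both shrank when the muscle-rich tumors were left out, Ndufa6 to 0.29 and Uqcrc2 to 0.21.

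The extremes of each complex were small. In complex I the differences ran from -0.28 for Ndufa12 to 0.42 for Ndufa2, in complex II from 0.07 for Sdhd to 0.26 for Sdhb, and in complex III from near 0 for Uqcr11 to 0.33 for Uqcrc2. Among the common genes of complex IV they ran from -0.10 for Cox8a to 0.26 for Cox6c. In complex V they ran from -0.08 for Atp5b to 0.33 for Atp5c1, the gamma subunit that forms the central stalk. Cycs differed by 0.30 ± 0.28.

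In adapted/C57BL/6 against original/B6129SF1, again 0 of 77 members passed (background 6.75% of all genes tested by limma), and 1 had an unadjusted p under 0.05, against 24.4% of all genes. The median log2 difference was -0.02, with 36 positive and 41 negative, against -0.03 for all genes. It was -0.07 without the muscle-rich tumors. Intervals lay between -1 and 1 for 71 of the 72 common genes (against 82.9% of all genes) and within 1.5-fold for 55. Groups did not overlap for 2 members that were higher (2.60%, against 14.9% of all genes) and for 4 that were lower (5.19%, against 17.9%).

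Ndufa4 was the exception to the first of these and had the lowest difference. It was at 233, 277 and 206 FPKM in original/B6129SF1, at 175, 193 and 361 FPKM in adapted/B6129SF1 and at 235, 146 and 140 FPKM in adapted/C57BL/6. In both adapted groups the muscle-rich tumor was at or above the middle original/B6129SF1 value, and the 4 other adapted tumors were all below the lowest original/B6129SF1 tumor. With all tumors its log2 difference in adapted/C57BL/6 was -0.49 ± 0.30, with an adjusted p of 0.355 by limma. Without the muscle-rich tumors it was -0.73 with an adjusted p of 0.0341 by limma, and Ndufa4 was then the only member called, 1 of 76 (1.32%, against 5.43% of all genes). That call needed both tumors left out. Without adapted/C57BL/6 replicate 1 alone the difference was the same -0.73 with an adjusted p of 0.221, and without adapted/B6129SF1 replicate 3 alone, which enters only through the shared estimate of the spread, the adjusted p was 0.183. For adapted/B6129SF1 the difference was -0.04 with all tumors and -0.37 without the muscle-rich tumor, with an adjusted p of 0.198 by limma in the latter.

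Atp5a1, the alpha subunit of the ATP synthase, was higher than every original/B6129SF1 tumor in all 6 adapted tumors. Its values were 432, 430 and 387 FPKM in original/B6129SF1, 434, 507 and 511 FPKM in adapted/B6129SF1 and 473, 499 and 479 FPKM in adapted/C57BL/6. The log2 difference was 0.21 ± 0.11 in adapted/B6129SF1 and 0.22 ± 0.11 in adapted/C57BL/6, with adjusted p-values of 0.234 and 0.246 by limma. Both comparisons share the original/B6129SF1 tumors. In the other direction, Cox6a1 was below every original/B6129SF1 tumor in all adapted/C57BL/6 tumors, at 310, 289 and 325 FPKM against 358, 379 and 355 FPKM, a difference of -0.24 ± 0.11 with an adjusted p of 0.210 by limma. Cox4i1, the most abundant complex IV gene, also lay lower in all adapted/C57BL/6 tumors, at 448, 488 and 461 FPKM against 488, 644 and 496 FPKM, with a difference of -0.21 ± 0.14 and an adjusted p of 0.388 by limma. Without original/B6129SF1 replicate 2, the tumor at 644 FPKM, it was -0.081. Without the muscle-rich tumors the differences were 0.17 and 0.23 for Atp5a1, -0.25 for Cox6a1 and -0.18 for Cox4i1.

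Elsewhere in this comparison the extremes were -0.26 for Ndufa12 in complex I, 0.11 for Sdhc and -0.04 for Sdhd in complex II, and 0.15 for Uqcrc2 and -0.22 for Uqcr11 in complex III. In complex V the lowest was Atp5d, the delta subunit, at -0.15. Cycs differed by 0.23 ± 0.28.

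**Figure D4:**
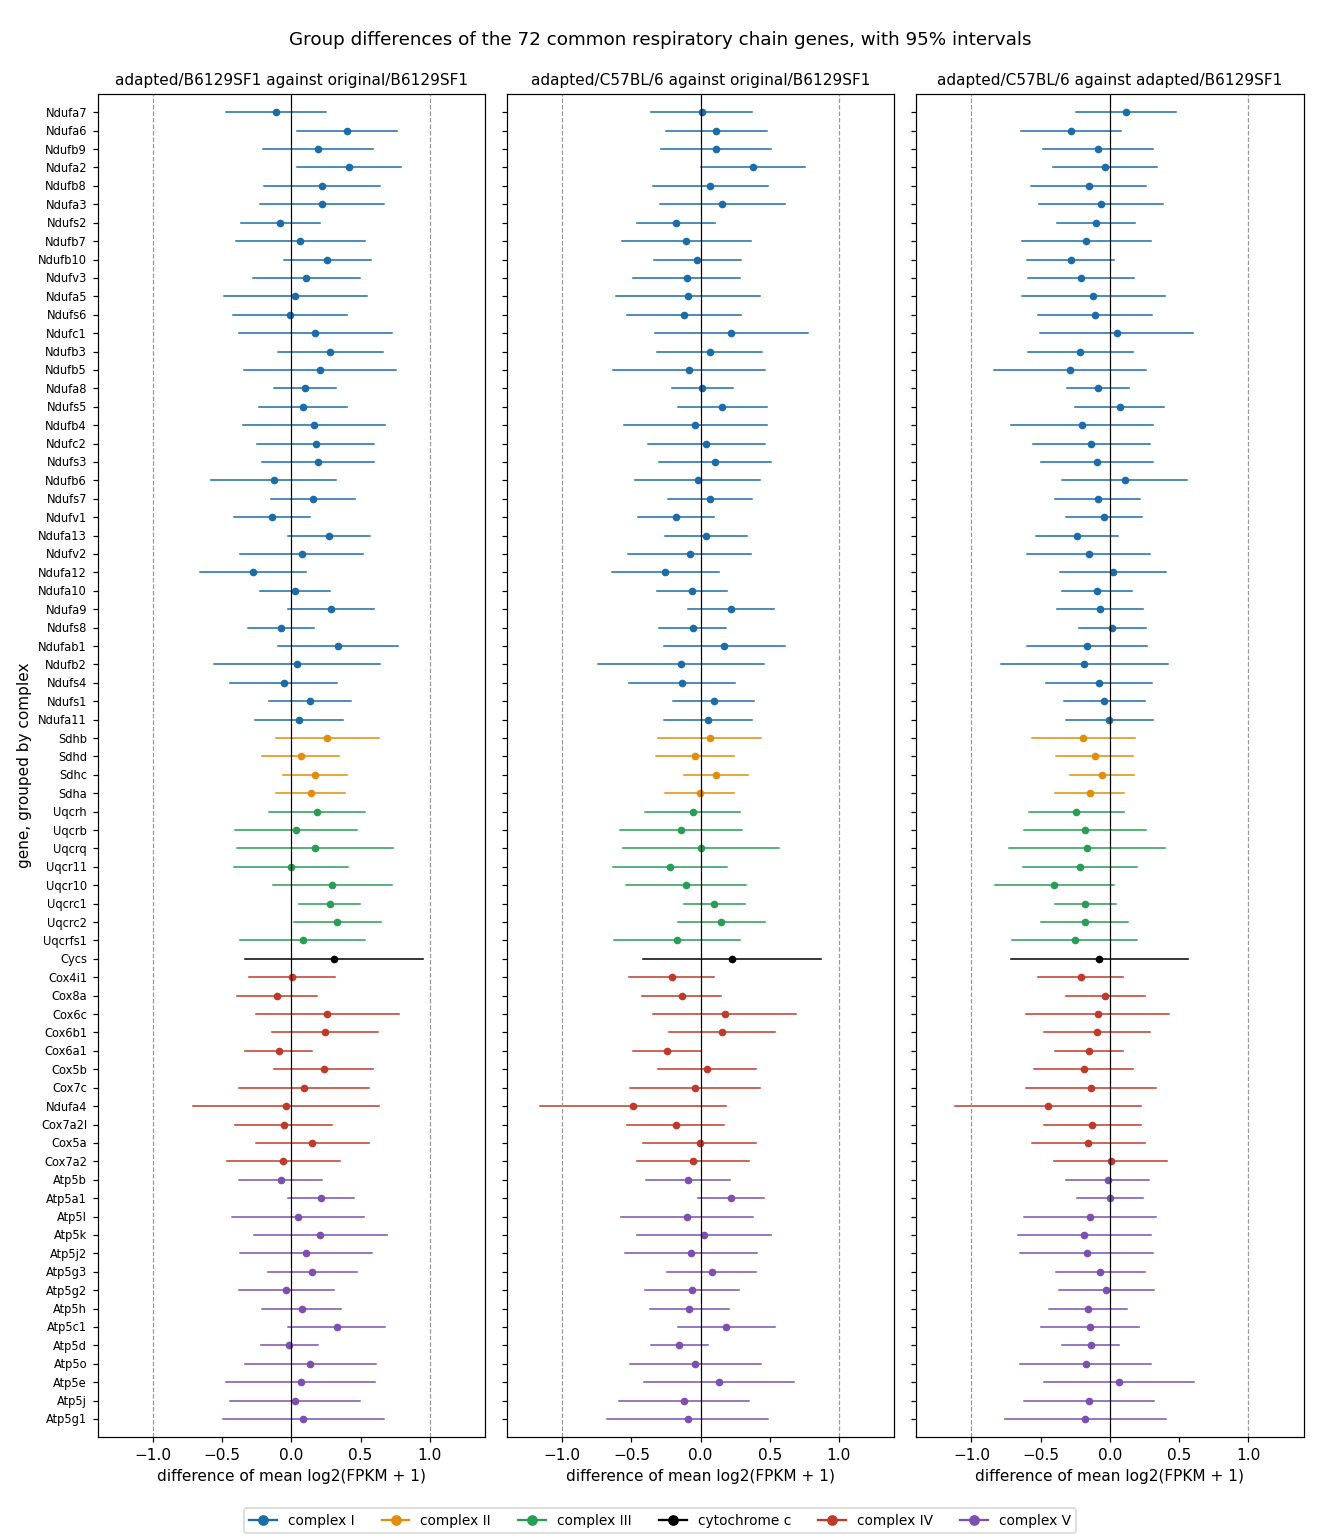
Difference of mean log2(FPKM + 1) between groups for the 72 common genes, with 95% intervals from limma (lines) and dashed lines at -1 and 1, in 1 panel per comparison. Only the Ndufa4 intervals in the comparisons of adapted/C57BL/6 pass below -1.

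Between hosts, adapted/C57BL/6 against adapted/B6129SF1, 0 of 77 members passed, where 0.0292% of all genes tested did (3 genes by limma). None had an unadjusted p under 0.05, against 6.27% of all genes. The median difference was -0.14, with 10 positive and 67 negative, against 0.01 for all genes tested. Without the muscle-rich tumors the median was -0.01, with 35 positive and 41 negative, and 0 of 76 were called (background 0.0397%). The excess of negative over positive differences in this comparison was thus smaller without these tumors.

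The largest difference among common genes in this comparison was that of Ndufa4 at -0.45 ± 0.30, followed by Uqcr10, a small subunit of complex III. Uqcr10 was at 188, 208 and 300 FPKM in adapted/B6129SF1 and at 187, 164 and 165 FPKM in adapted/C57BL/6, so the groups did not overlap. Its log2 difference was -0.40 ± 0.19 with an adjusted p of 0.814 by limma. It was -0.20 without adapted/B6129SF1 replicate 3 alone and -0.26 without both muscle-rich tumors. Such separation of the groups held for 3 members in the lower direction (3.90%, against 5.42% of all genes) and for 0 in the higher (against 6.32%). The extremes were 0.12 for Ndufa7 and -0.29 for Ndufb5 in complex I, -0.06 for Sdhc and -0.19 for Sdhb in complex II, and 0.07 for Atp5e and -0.18 for Atp5k in complex V.

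**Figure D5:**
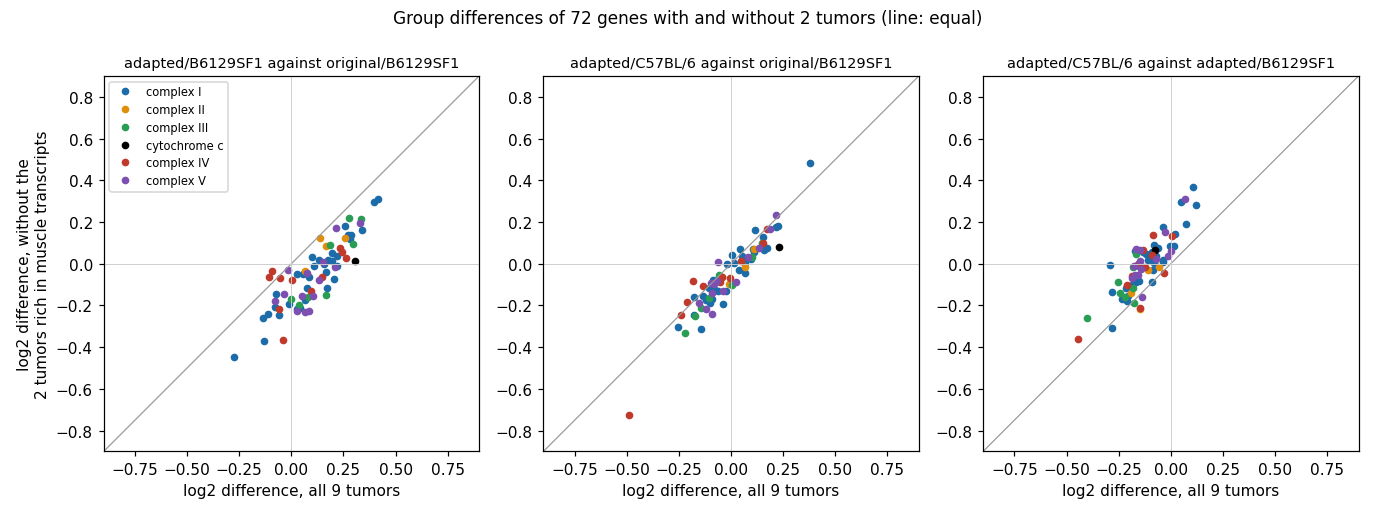
Log2 differences of the 72 common genes in each comparison with all 9 tumors (horizontal axis) and without the 2 muscle-rich tumors (vertical axis), coloured by complex, with a line of equal values. For adapted/B6129SF1 against original/B6129SF1, 70 points lie below the line.

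Other genes of the mitochondrion were read from lists beside the members. Of 31 assembly factors tested, which build the complexes without being part of them, 0 passed in any comparison by limma, and 6, 3 and 0 had an unadjusted p under 0.05 in adapted/B6129SF1 against original/B6129SF1, adapted/C57BL/6 against original/B6129SF1 and adapted/C57BL/6 against adapted/B6129SF1 (19.4%, 9.68% and 0%, against 26.5%, 24.4% and 6.27% of all genes). Their median difference was -0.07 in adapted/B6129SF1 and -0.16 in adapted/C57BL/6 against original/B6129SF1. Relative to their own means, the assembly factors had a median of 0.05 in adapted/B6129SF1 replicate 3 and of 0.16 in original/B6129SF1 replicate 2. For the 17 citric acid cycle genes the median was highest there, at 0.26, and 12 of the 17 had their highest value in this tumor. Under the TPM scaling it was 0.13 there, below the 0.21 of adapted/C57BL/6 replicate 1. The 15 tested regulators of mitochondrial gene expression, among them Nrf1, Gabpa and Tfam, had a median of -0.03 in this tumor, and 0 of them passed in any comparison by limma (3, 2 and 0 with an unadjusted p under 0.05, or 20%, 13.3% and 0%, in the same order and against the same shares of all genes). Ppargc1a, a coactivator of mitochondrial biogenesis, was listed at 0.693 FPKM in adapted/B6129SF1 replicate 3 and 0.670 FPKM in adapted/C57BL/6 replicate 1, and at no more than 0.220 FPKM in the other tumors.

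Among the 13 other genes of electron transfer, carriers and channels, 2 fell in adapted/B6129SF1 and 1 in adapted/C57BL/6 against original/B6129SF1 (15.4% and 7.69%, where 8.28% and 6.75% of all genes were called). Gpd2, the mitochondrial glycerol phosphate dehydrogenase that feeds electrons into the chain, was at 26.3, 21.9 and 26.8 FPKM in original/B6129SF1, at 13.9, 15.4 and 13.0 FPKM in adapted/B6129SF1 and at 16.2, 16.1 and 15.9 FPKM in adapted/C57BL/6. The original/B6129SF1 tumors lay above all 6 adapted tumors. Gpd2 fell by 0.78 ± 0.10 on the log2 scale in adapted/B6129SF1 and by 0.60 ± 0.10 in adapted/C57BL/6, with adjusted p-values of 0.00592 and 0.0129 by limma. The adjusted p-values were 0.0249 and 0.0380 without the muscle-rich tumors. The call in adapted/C57BL/6 was lost under the TPM scaling.

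Dhodh, which oxidises dihydroorotate in pyrimidine synthesis and also passes electrons to the chain, was at 6.44, 7.60 and 6.29 FPKM in original/B6129SF1 and at 4.57, 4.94 and 4.75 FPKM in adapted/B6129SF1. It fell by 0.43 ± 0.10 with an adjusted p of 0.0402 by limma, which was 0.118 without the muscle-rich tumors. Of 17 citric acid cycle enzymes, 1 passed in adapted/B6129SF1 (5.88%, against 8.28% of all genes), with 0 in the other comparisons. Idh3b, a subunit of isocitrate dehydrogenase, was at 90.7, 83.4 and 79.3 FPKM in original/B6129SF1 and at 106, 113 and 116 FPKM in adapted/B6129SF1, a rise of 0.40 ± 0.09 with an adjusted p of 0.0351 by limma, and 0.120 without the muscle-rich tumors. Slc25a4, the muscle and heart form of the ADP/ATP carrier, was at 574 FPKM in adapted/B6129SF1 replicate 3 and 437 FPKM in adapted/C57BL/6 replicate 1, and at 270 to 373 FPKM in the other 7 tumors.

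Markers of other cell types differed between tumors and groups. The summed FPKM of 14 leukocyte markers ran from 839 to 995 in original/B6129SF1, from 1248 to 1642 in adapted/B6129SF1 and from 939 to 1780 in adapted/C57BL/6. Of these, 13 were tested, and all 13 were higher on average in both adapted groups than in original/B6129SF1. In adapted/B6129SF1 and adapted/C57BL/6, 10 and 8 had an unadjusted p under 0.05 by limma (76.9% and 61.5%, against 26.5% and 24.4% of all genes). Only Cd52 passed the adjusted threshold (7.69%, against 8.28% of all genes). It rose by 1.12 in adapted/B6129SF1 against original/B6129SF1 (adjusted p of 0.0491 by limma, and 0.132 without the muscle-rich tumors). The summed FPKM of 8 white adipocyte markers was 70.1 in adapted/B6129SF1 replicate 3, where 6 of the 8 were highest, 19.6 in adapted/C57BL/6 replicate 1 and 4.68 to 22.0 in the other tumors. The summed FPKM of 7 endothelial markers was 115 in adapted/B6129SF1 replicate 3, where 5 of the 7 were highest, with 67.9 to 86.2 in original/B6129SF1, 73.8 and 104 in the other adapted/B6129SF1 tumors and 87.7 to 104 in adapted/C57BL/6. Of these 7, only Egfl7 passed, in both adapted groups against original/B6129SF1 (14.3%, against 8.28% and 6.75% of all genes). Egfl7 rose by 0.59 in both, with adjusted p-values of 0.0406 and 0.0471 by limma, and 0.0889 and 0.0572 without the muscle-rich tumors. Of 24 cell cycle genes, 0 passed in any comparison by limma. Of all genes, 8.28%, 6.75% and 0.0292% did, in the order given for the assembly factors. An unadjusted p under 0.05 was met by 1, 0 and 1 (4.17%, 0% and 4.17%, against 26.5%, 24.4% and 6.27%). All 24 were lower in adapted/B6129SF1 against original/B6129SF1 (median -0.35). In adapted/C57BL/6, 15 were lower and 9 higher against original/B6129SF1, and 23 were higher and 1 lower against adapted/B6129SF1. Their median relative level was lowest, at -0.91, in adapted/B6129SF1 replicate 1, the tumor with the lowest member level. The part of these in the members' levels was not tested.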

How the data were processed

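RNA of 9 whole tumors, 3 in each group, was sequenced by the authors on a HiSeq2000. Per the labels and the methods of the study, reads were checked with FastQC and aligned to mm10 with HISAT2, and FPKM values were made with Cuffnorm. The authors deposited 1 table of FPKM for 17369 genes. The annotation and the scaling between libraries are not given in the sources used here. The organism field of the labels reads Homo sapiens, while the symbols and the build are those of mouse, and the values were treated as mouse.

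The groups were compared on log2(FPKM + 1) by limma (version 3.58.1, R 4.3.3), with a mean-variance trend, 1 model for the 3 groups and no covariate. A gene entered the test where 3 or more tumors had 1 FPKM or more (10263 genes, with 77 of the 80 members). Fold changes on this scale understate those of low genes. P-values were adjusted by Benjamini-Hochberg over all genes tested, with a threshold of 0.05. The limma step alone was tested on simulated data. There the genes were drawn independently and the planted changes were larger than any difference of the common members, so sensitivity to small shared shifts was not tested. Shares of isoform pairs were compared with exact two-sided permutation tests.

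The members and gene lists were chosen with earlier results of these data known. Named were members past the threshold, the extremes of each complex, the highest means, members next to the filter, tissue isoform pairs, and list genes past the threshold. Members with the smallest adjusted p or with groups that did not overlap, Cycs, Ndufs7, Slc25a4, Ppargc1a, Egfl7, Cd52, and the muscle and fat genes Fabp3, Ckmt2 and Mylpf were named after their values were seen. The number of reads per tumor is unknown, since at most 12.2% of low values lay on a common step between 2 tumors, so no counting interval is given. Nothing in the sources says whether tumors were processed in batches. No 2 tumors shared more than 0.0487% of values, and p-values measure the spread between tumors of separate mice.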

Additional observations from a re-analysis of the deposited data

How the results depend on the processing

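The count of members called was 0 in all 3 comparisons with a pseudocount of 0.1, no filter, a filter of 5 FPKM, rescaling to an equal total (TPM), median-of-ratios scaling, quantile normalization, only the groups compared, no trend, and common subunits only. It was 1 in adapted/C57BL/6 against original/B6129SF1 without the muscle-rich tumors (Ndufa4), and 0 to 1 when single tumors were left out in adapted/B6129SF1 against original/B6129SF1, where Ndufa6 reached 0.57 (adjusted p of 0.0452 by limma) without original/B6129SF1 replicate 2. With the replicate block the members' count was 0 and their median difference 0.13 for adapted/B6129SF1 against original/B6129SF1, while calls over all genes fell from 850 to 444 and from 693 to 388 in the comparisons with original/B6129SF1. After each gene's group mean was subtracted, the same-numbered tumors of 2 groups correlated between -0.39 and 0.61. These tumors come from different mice, so the numbers were not taken as pairs. Without the muscle-rich tumors 477 genes were called in adapted/B6129SF1 against original/B6129SF1. The median difference of the members ranged, with single tumors left out, from -0.04 to 0.26 for adapted/B6129SF1 against original/B6129SF1, from -0.07 to 0.07 for adapted/C57BL/6 against original/B6129SF1 and from -0.27 to 0.04 for adapted/C57BL/6 against adapted/B6129SF1. The values of -0.04 and 0.04 came without adapted/B6129SF1 replicate 3.

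The shares of the muscle forms turned direction with single tumors. For adapted/C57BL/6 against adapted/B6129SF1 the difference in percent of the pair ranged from -20.6 to 7.10 for Cox6a2, from -12.3 to 4.56 for Cox7a1 and from -6.68 to 4.25 for Cox8b, and for adapted/C57BL/6 against original/B6129SF1 that of Cox7a1 ranged from -1.30 to 15.6, with -1.30 also without the muscle-rich tumors. The log2 differences ranged from -3.23 to 0.86 for Cox6a2, from -1.94 to 0.11 for Cox7a1 and from -3.01 to 0.015 for Cox8b in adapted/C57BL/6 against adapted/B6129SF1, and from -0.035 to 3.11 for Cox6a2 and from -0.48 to 1.58 for Cox7a1 in adapted/C57BL/6 against original/B6129SF1. The negative ends of the last 2 ranges came without adapted/C57BL/6 replicate 1. They were also the values without both muscle-rich tumors. Outside the members, the Gpd2 call held in adapted/B6129SF1 under every setting run and was lost in adapted/C57BL/6 without original/B6129SF1 replicates 1 or 3 or adapted/C57BL/6 replicate 3. The Dhodh and Idh3b calls were each lost in 10 or more settings. A test on read counts was not run because the table holds FPKM, and the unknown depth limits the low tissue forms most.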
